A study of Mus musculus with 6 samples.

Results

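The genes of the proteasome and of the COP9 signalosome were followed in pancreatic islets of mice given bisphenol A (BPA) or its vehicle. BPA is a component of plastics with oestrogen-like activity. Members were the probe sets with a single gene symbol that begins with Psma, Psmb, Psmc, Psmd, Psme or Cops and then a digit, without the inducible subunits Psmb8 and Psmb9. The rule reads names and no values, but this set of genes was taken up with earlier results of these data known. It gave 107 probe sets of 51 genes among 45101 probe sets on the array. A further probe set, which carries the symbols Psme2b and Psme2, was not a member. The BPA group held 3 islet samples of OF1 male mice, 10 weeks old, and the control group 3 islet samples of mice of the same strain, sex and age that had received corn oil. Every sample had an Affymetrix array of its own, and the question set by the study is how islets respond to BPA given briefly to the whole animal. The labels differ on the treatment: the design text gives 100 µg/kg/day under the skin as injections of 50 µg/kg for 4 days, with islets taken 16 hours after the last one, the treatment protocol gives 2 days, and the source names give 1 nM for 48 hours. Samples are labelled as biological replicates, with 3 independent experiments behind each per the design text. The sources used here do not say how many animals that was, so p-values measure the spread between these samples.

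The proteasome is the barrel-shaped protease that breaks down proteins tagged with ubiquitin. Its 20S core consists of outer rings of alpha subunits, which gate the entry, and inner rings of beta subunits, some of which carry the protease sites. The 19S regulatory particle sits on the core, with a base whose ATPases unfold substrates and a lid that removes ubiquitin. The COP9 signalosome is a complex related to that lid which takes the small modifier Nedd8 off cullin ubiquitin ligases. In the hormone-secreting cells of islets the proteasome disposes of misfolded prohormone that is pulled out of the endoplasmic reticulum.

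The names mostly held true subunits. Apart from 2, all 51 genes encode subunits, activators or dedicated assembly factors. The exceptions share the prefix only: Psmc3ip encodes a partner of meiotic recombinases, and Psme3ip1 a protein that binds the activator Psme3. Some subunits have other names (Adrm1, Sem1 and the COP9 subunit Gps1) and so were not members. The arrays carried islet RNA, with the insulin gene Ins2 at a log2 signal of 15.24 to 15.32 in BPA islets and 15.27 to 15.31 in control islets, and the glucagon gene Gcg at 14.98 to 15.08 in BPA islets and 15.07 to 15.14 in control islets. Acinar enzyme genes were also bright: the elastase gene Cela3b read 15.09, 14.71 and 14.26 in BPA islets, against 14.92, 15.05 and 13.58 in control islets. The control transcripts of the array, probed at both ends, read higher at the 3′ than the 5′ end by 2.60, 2.87 and 2.99 (log2) in BPA replicates 1 to 3, against 3.42, 3.79 and 3.54 in control replicates 1 to 3. This end balance, a sign of RNA integrity and labelling, did not overlap between the groups. Both replicate 3 arrays stood apart over the whole array. On the first principal component of the kept probe sets, with 55.9% of the variance, they lay at 36.3 (BPA) and 47.2 (control), and the other 4 arrays between -37.5 and -3.24. Control replicate 3 correlated with BPA replicate 3 at 0.993, and with control replicates 1 and 2 at 0.985 and 0.986. With 3 arrays a group, precision is low throughout.

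Most member genes had somewhat higher signal after BPA, and none passed the test. Each gene was represented by its probe set with the highest mean signal among those above the median signal of the array, which 49 of the 51 genes had. Of these 49 genes 36 were higher in BPA islets and 13 lower, where 57.7% of all 11787 tested genes were higher and 42.3% lower. The median difference was 0.099 (log2, BPA minus control), with quartiles of -0.0029 and 0.28, beside a median of 0.028 over all tested genes. In limma's moderated test 0 of the 49 genes were called at an adjusted p under 0.05 in either direction, as were 0.0% of all tested genes. Among the members the lowest adjusted p was 0.655. The genes with an unadjusted p under 0.05 that were higher numbered 5 of 49, which is 10.2% against 3.98% of all genes, and the lower ones 0, against 1.36% of all genes. The groups did not overlap for 7 members, all with BPA above (14.3%, against 8.48% of all genes), and for 0 with BPA below (against 3.53%).

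The size of that shift rested on single arrays. Without BPA replicate 1 the median of the members was 0.014 and 26 of 49 were higher, without control replicate 3 it was 0.042 with 30 higher, and without BPA replicate 3 it was 0.17 with 40 higher. The count of 5 genes at an unadjusted p under 0.05 was 1 without BPA replicate 1, 1 without control replicate 1, 3 without control replicate 2, 3 without control replicate 3 and 11 without BPA replicate 3. When the model also held the end balance as a term, the median was -0.10 and 18 of 49 genes were higher. The end balance separates the groups, so its part and that of BPA cannot be told apart. In that fit 19 of the 36 higher genes lay below 0. The lowest adjusted p of the member genes there was 0.99996 in limma, and 0 were called. At an unadjusted p under 0.05 there was 1 of the 49 genes (381 of all 22518 tested probe sets were). The values of that fit for single genes, given below without a standard error, are therefore not taken as resolved from 0. In bulk islets, fewer cells of a type and less RNA per cell cannot be told apart.

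**Figure D1:**
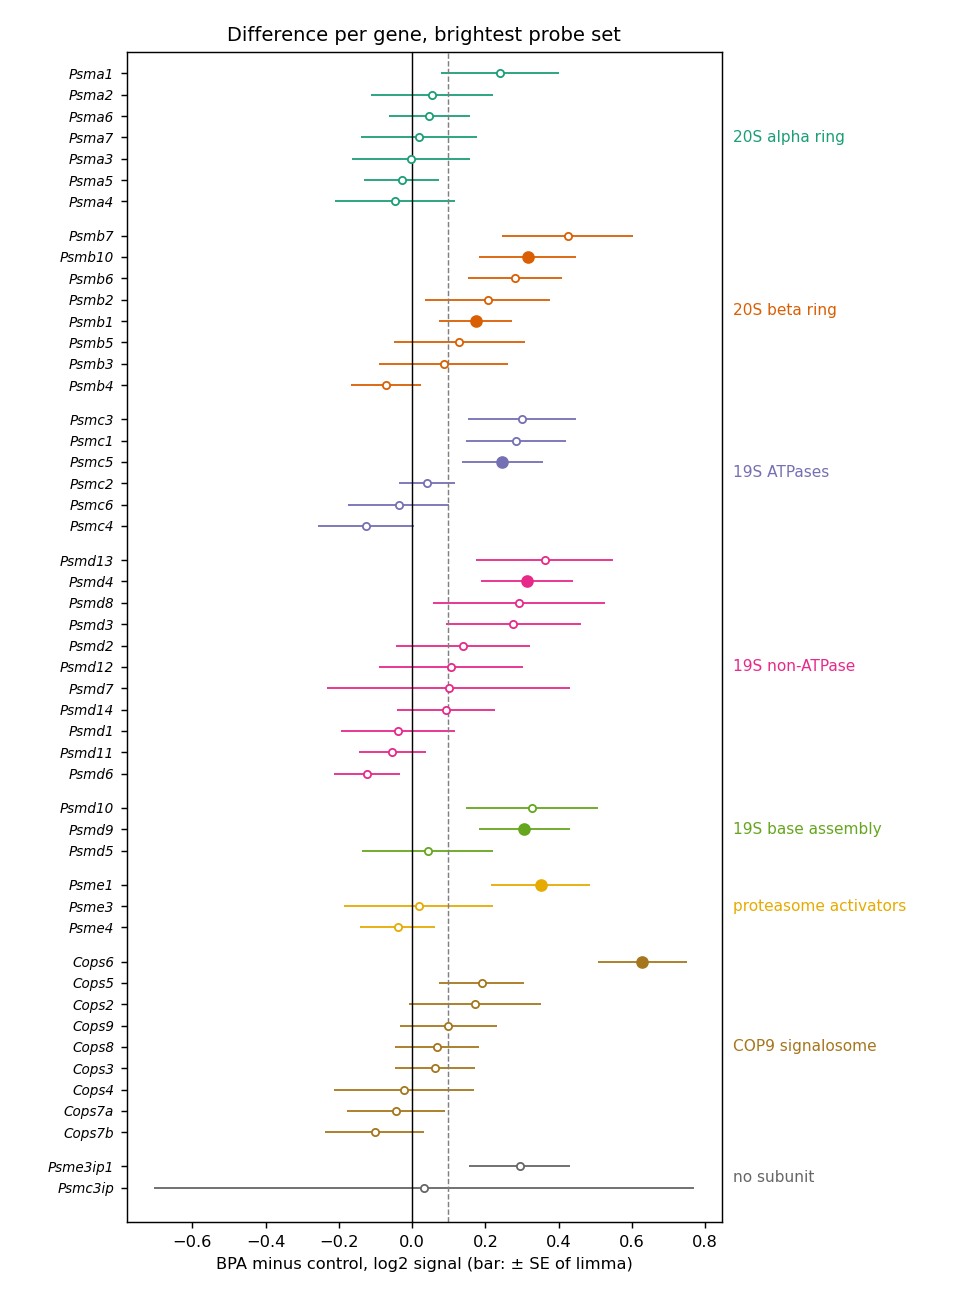
Each point is the difference in log2 signal (BPA minus control) of 1 gene's brightest probe set, with its standard error from limma, grouped by structural class; filled points are the 7 genes whose groups do not overlap. The solid line marks 0 and the dashed line the members' median of 0.099; Cops6, at 0.63, stands furthest to the right, and no gene lies below -0.13.

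Cops6 had the largest difference of the 49 genes. It encodes the partner of the catalytic subunit in the COP9 signalosome. The brightest of its 2 probe sets (1451366_at) read 10.32, 10.06 and 10.26 in BPA islets, against 9.46, 9.62 and 9.67 in control islets. All BPA arrays lay above all control arrays. The difference was 0.63 ± 0.12 (log2, SE), or 1.55 times the control signal, with an unadjusted p of 0.00141 and an adjusted p of 0.655 in limma. It kept its sign in 17 of 17 alternatives and lay between 0.57 and 0.70 with each array left out. The filters, the variance models and the replicate block among them leave this difference as it is by construction. The other probe set (1451367_at) did not show it, at 8.52, 7.97 and 7.73 in BPA islets, against 8.15, 8.12 and 8.02 in control islets. There the BPA arrays lay both above and below the controls, and the difference was -0.021 ± 0.21 (adjusted p = 0.992). The mean of both probe sets differed by 0.30.

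The other COP9 genes lay closer to 0. Over the 9 tested genes of the complex the median was 0.068, with 6 higher and 3 lower. It was 0.017 without BPA replicate 1, 0.12 without BPA replicate 3 and -0.11 with the end balance in the model. Cops5, the enzyme that removes Nedd8, read 10.16, 10.15 and 9.95 in BPA islets, against 9.92, 9.79 and 9.98 in control islets. Control replicate 3 lay above BPA replicate 3, so the groups overlapped, and the difference was 0.19 ± 0.12 (SE, adjusted p = 0.833). Cops9, the smallest subunit, had the highest signal of the class and read 12.15, 12.13 and 12.55 in BPA islets, against 12.12, 12.17 and 12.23 in control islets. It lay between 12.12 and 12.23 in 5 arrays and higher in BPA replicate 3 alone (difference 0.099 ± 0.13). Cops2, Cops3 and Cops8, which belong to the scaffold of the complex, differed by 0.17, 0.062 and 0.068, and the scaffold gene Cops4 by -0.021. The alternative subunits Cops7a and Cops7b, of which a complex holds either, differed by -0.044 and -0.10 on their brightest probe sets, and by 0.31 and 0.12 on their second ones. With the end balance in the model Cops2, Cops3 and Cops5 were at -0.27, -0.35 and -0.15, and Cops6 was at 0.63. None of the 8 genes other than Cops6 had an adjusted p under 0.833.

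**Figure D2:**
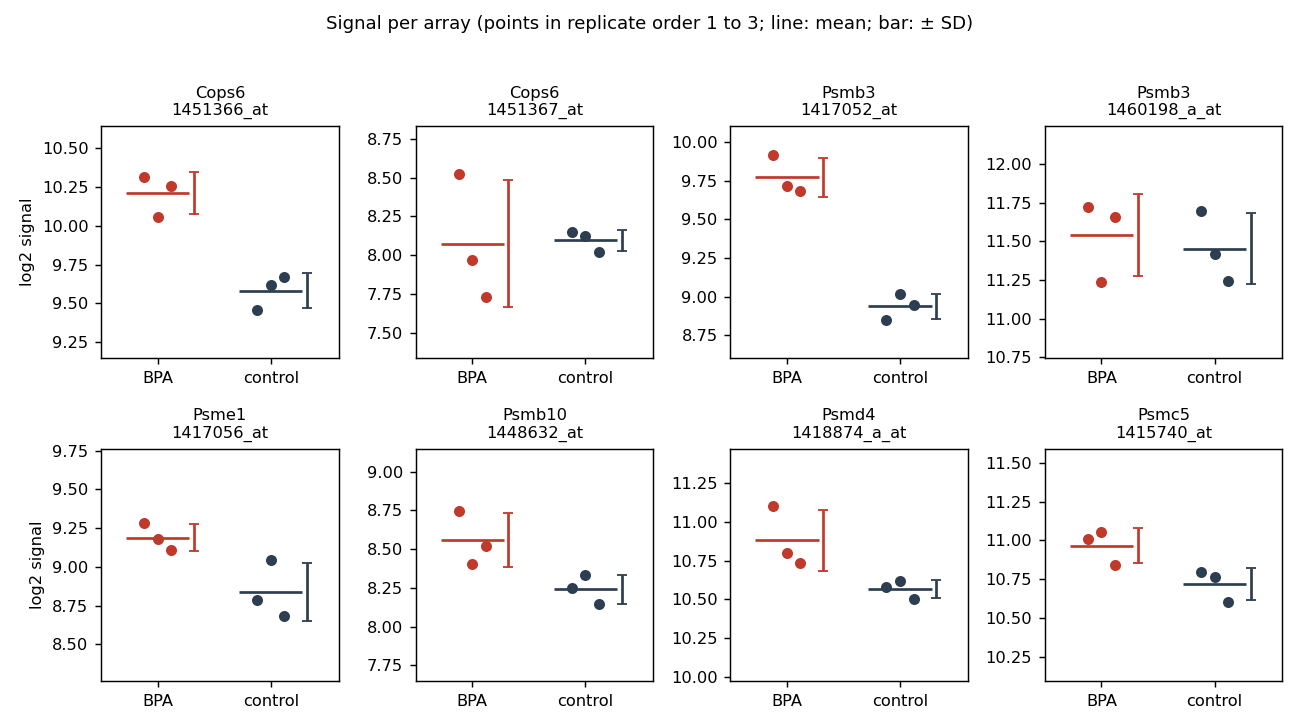
Log2 signal of 8 probe sets in each array, with BPA left of control in each panel, the mean as a line and the SD beside it (n = 3 each); every vertical axis spans 1.5 units. BPA and control separate for 1 probe set each of Cops6 and Psmb3, and overlap for the other probe set of the same gene. They also separate for Psme1, Psmb10, Psmd4 and Psmc5, which are among the member genes without overlap.

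Beta subunit genes of the core were mostly higher after BPA, and alpha subunit genes were mixed. Of the 8 tested beta subunit genes 7 were higher after BPA, with a median of 0.19; of the 7 alpha subunit genes 4 were higher and 3 lower, with a median of 0.018. Over the alternatives the medians ran from 0.044 to 0.26 for the beta and from -0.45 to 0.10 for the alpha ring, both lowest with the end balance in the model; the difference between the rings was not tested. The catalytic subunits are Psmb5, Psmb6 and Psmb7, which cut after hydrophobic, acidic and basic residues. Psmb7 read 10.38, 10.33 and 9.81 in BPA islets, against 9.60, 9.89 and 9.76 in control islets. BPA replicate 3 lay between the controls, while the other BPA arrays lay above them (difference 0.42 ± 0.18, SE, adjusted p = 0.775). Psmb6 read 12.04, 11.74 and 11.97 in BPA islets, against 11.47, 11.64 and 11.80 in control islets, with BPA replicate 2 below control replicate 3. It differed by 0.28 ± 0.13. Psmb5 overlapped widely and differed by 0.13 ± 0.18.

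Psmb10, the subunit that takes the place of Psmb7 in the immunoproteasome, read 8.75, 8.41 and 8.52 in BPA islets, against 8.25, 8.33 and 8.15 in control islets. All BPA arrays were above all controls, by 0.32 ± 0.13 (SE, unadjusted p = 0.0496, adjusted p = 0.769). Psmb1, a structural beta subunit, read 11.02, 10.81 and 10.95 in BPA islets, against 10.77, 10.76 and 10.74 in control islets, a small difference without overlap (0.17 ± 0.099, adjusted p = 0.832). Psmb4, the beta subunit with the brightest probe set, read 13.04, 13.17 and 13.14 in BPA islets, against 13.26, 13.03 and 13.28 in control islets, with overlapping groups and a difference of -0.071 ± 0.095. In the alpha ring the smallest p was that of Psma1, at 0.24 ± 0.16 (unadjusted p = 0.182), with BPA replicate 3 below all controls. Psma6 had the highest signal there and differed by 0.047 ± 0.11. The other 5 lay between -0.047 and 0.054. With the end balance in the model Psma1 was at -0.36 and all 7 alpha genes lay below 0. In the beta ring Psmb3 and Psmb5 then lay below 0, at -0.30 and -0.22, while Psmb7, Psmb6 and Psmb10 were at 0.21, 0.24 and 0.14.

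In the 19S particle, 4 of 6 ATPase genes and 8 of 11 non-ATPase subunit genes were higher, with medians of 0.14 and 0.11. The non-ATPase median was 0.014 without BPA replicate 1, 0.072 without control replicate 3, 0.17 without control replicate 2 and 0.28 without BPA replicate 3. With the end balance in the model it was -0.044 and the ATPase median -0.00041. Of the ATPases, Psmc5 read 11.01, 11.06 and 10.84 in BPA islets, against 10.79, 10.76 and 10.60 in control islets, without overlap (difference 0.25 ± 0.11, SE, adjusted p = 0.791). Psmc3 and Psmc1 differed by 0.30 ± 0.15 and 0.28 ± 0.14, each with the lowest BPA array below the highest control. Psmc2, the class's brightest probe set, read 13.22, 13.14 and 13.30 in BPA islets, against 13.20, 13.17 and 13.16 in control islets, with overlap (difference 0.041 ± 0.075). Among the non-ATPase subunits Psmd4, a receptor that binds ubiquitin chains, read 11.11, 10.80 and 10.74 in BPA islets, against 10.58, 10.62 and 10.50 in control islets. Its groups did not overlap, with BPA replicate 1 the highest (difference 0.31 ± 0.13, adjusted p = 0.748).  Psmd14, the lid enzyme that cuts ubiquitin off substrates, differed by 0.093 ± 0.13, and its partner Psmd7 by 0.10 ± 0.33, with readings from 8.49 to 9.79 within the BPA arrays alone. The lid subunit Psmd11, with the highest signal of the class, differed by -0.054 ± 0.091, and the lid subunit Psmd6 by -0.12 ± 0.089, the most negative value of the class. The most positive value was that of Psmd13, at 0.36 ± 0.19 (adjusted p = 0.801 in limma). Psmd8 and Psmd3 differed by 0.29 ± 0.23 and 0.28 ± 0.18, and the groups overlapped for all 3 of these genes. On its second probe set Psmd6 differed by 0.14, and the 3 tested probe sets of Psmd4 lay between -0.091 and 0.45. With the end balance in the model Psmd4, Psmd14 and Psmd7 were at -0.021, -0.044 and -1.71, in a fit that called 0 members. Among the ATPases Psmc3 was then at -0.061, Psmc1 at 0.21 and Psmc5 at 0.13.

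Factors that assemble or activate the particle included 2 further genes without overlap. Psmd9, a chaperone for the ATPase ring, read 7.62, 7.33 and 7.37 in BPA islets, against 7.06, 7.13 and 7.21 in control islets (difference 0.31 ± 0.12, SE, unadjusted p = 0.0433, adjusted p = 0.748). The other ATPase chaperones, Psmd10 (gankyrin) and Psmd5, differed by 0.33 ± 0.18 and 0.042 ± 0.18, both with overlap. Psme1, a subunit of the PA28 activator that interferon gamma induces, read 9.28, 9.18 and 9.11 in BPA islets, against 8.79, 9.05 and 8.68 in control islets. Each BPA array was above each control, by 0.35 ± 0.13 on average (unadjusted p = 0.0358, adjusted p = 0.746), and the value lay between 0.27 and 0.46 with each array left out. The nuclear activator genes Psme3 and Psme4 overlapped between the groups, at 0.018 ± 0.20 and -0.039 ± 0.10. With the end balance in the model Psmd10, Psmd5 and Psme3 were at -0.41, -0.47 and -0.86, and Psmd9 and Psme1 at 0.061 and 0.47.

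The inducible subunits that the rule leaves out were read beside Psmb10 and Psme1. Psmb8, which replaces Psmb5 in the immunoproteasome, read 9.58, 9.60 and 9.48 in BPA islets, against 9.15, 9.06 and 9.17 in control islets on its brightest probe set. The BPA arrays lay above all controls, by 0.43 ± 0.10 (SE, unadjusted p = 0.00482, adjusted p = 0.655). Psmb9, which replaces Psmb6, read 8.62, 8.40 and 8.18 in BPA islets, against 8.70, 8.19 and 7.74 in control islets, with control replicate 1 the highest of all arrays, and differed by 0.19 ± 0.25 (adjusted p = 0.913). The probe set with the symbols Psme2b and Psme2 differed by 0.52 ± 0.11 (unadjusted p = 0.0027, adjusted p = 0.655 in limma). Its BPA arrays lay above all controls, as in 7.83% of all tested probe sets. Of the interferon response list's 11 tested genes 5 were higher and 6 lower, with a median of -0.061, 1 gene at an unadjusted p under 0.05 (higher; 3.98% of all tested genes were) and 0 called. That gene was Ifit1, an interferon-induced RNA-binding protein, at 0.39 ± 0.15. The lower member with the smallest p was the peptide-loading gene Tapbp at -0.16 ± 0.10. Of 10 immune cell markers 9 were tested and 7 of these were higher, with a median of 0.098. Their mean relative to the 6 arrays was 0.52, -0.16 and -0.016 in BPA replicates 1 to 3, against 0.069, -0.16 and -0.26 in control replicates 1 to 3. The part of immune cells in the inducible subunits was not tested.

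Probe sets of the same gene often disagreed. Of the 107 member probe sets 79 passed the filter, of which 58 were higher and 21 lower after BPA (52.6% of all 22518 tested probe sets were higher), with a median of 0.11. At an unadjusted p under 0.05 there were 8 higher (10.1%, against 3.84% of all probe sets) and 0 lower (against 2.64%), and 0 were called after adjustment by limma, against 0.0% of all. The groups did not overlap for 11 with BPA above (against 7.83% of all probe sets) and for 0 with BPA below (against 4.35%). Of 22 genes with several tested probe sets, 13 had values of both signs. The second brightest probe set was more positive than the brightest in 16 of the 22, with medians of 0.16 for the second and 0.037 for the brightest. The largest member difference of all was of this kind. On its second probe set (1417052_at) the structural beta subunit gene Psmb3 read 9.91, 9.72 and 9.68 in BPA islets, against 8.85, 9.01 and 8.95 in control islets. That is 1.78 times the control signal, a difference of 0.83 ± 0.12 (SE) with an unadjusted p of 0.000223 and an adjusted p of 0.655. Its brightest probe set (1460198_a_at) read 11.72, 11.24 and 11.66 in BPA islets, against 11.70, 11.42 and 11.24 in control islets, with full overlap and a difference of 0.086 ± 0.18.

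Psmc4, an ATPase of the base, gave -0.13 on its brightest probe set and 0.36 ± 0.12 on the other, where it read 9.72, 9.87 and 9.62 in BPA islets, against 9.25, 9.46 and 9.43 in control islets, without overlap (adjusted p = 0.703). Psmb4 likewise gave 0.32 ± 0.098 on its second probe set, with 12.64, 12.62 and 12.46 in BPA islets, against 12.14, 12.36 and 12.25 in control islets and no overlap (adjusted p = 0.674), and Psmc2 gave 0.17 ± 0.082. The 5 tested probe sets of Psme4 lay between -0.48 and 0.032, and the 4 of Psmd11 between -0.054 and 0.28. Names of Affymetrix probe sets that end in _a_at, _s_at or _x_at mark probe sets that may match several transcripts. Of 30 tested member probe sets with such an ending 20 were higher (median 0.067), and of 49 with the plain ending _at 38 were (median 0.14), beside medians of 0.023 and 0.0072 over all tested probe sets of each kind. Where the probes lie along the transcripts was not read, so the part of probe position was not tested.

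**Figure D3:**
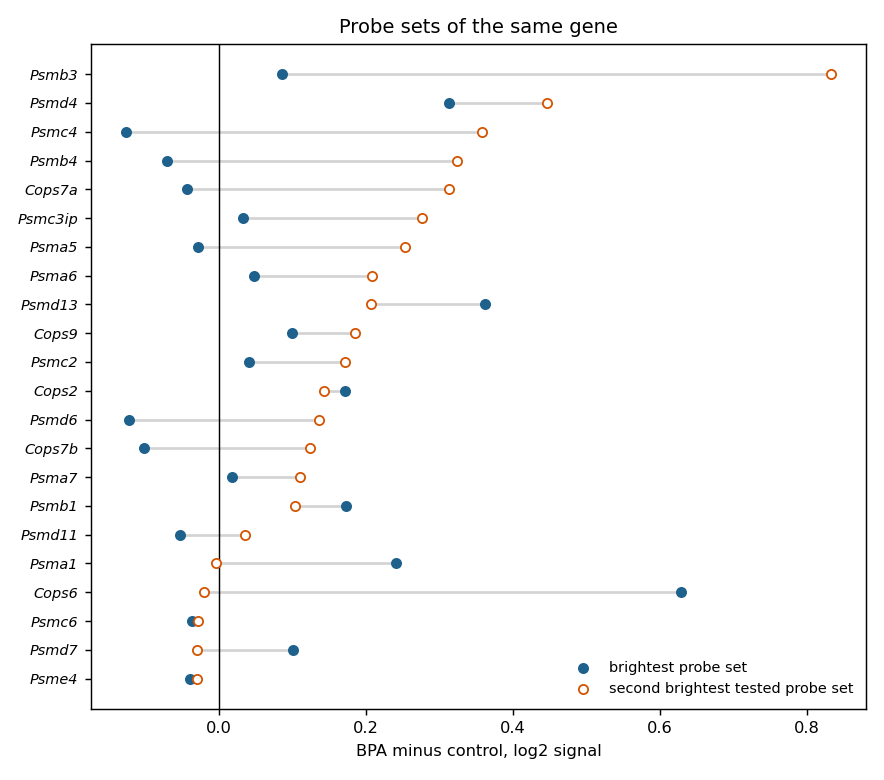
For the 22 genes with several tested probe sets, the difference in log2 signal (BPA minus control) on the brightest probe set (filled) and on the second brightest (open), with genes ordered by the open point. The open point lies to the right of the filled one in 16 genes. It is at 0.83 against 0.086 for Psmb3 and at -0.021 against 0.63 for Cops6.

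The members varied together from array to array. Relative to each gene's own mean over the 6 arrays, the 49 genes averaged 0.24, 0.037 and -0.085 in BPA replicates 1 to 3, against -0.025, -0.0079 and -0.16 in control replicates 1 to 3. BPA replicate 1 gave the highest reading of 35 of the 49 genes (71.4%, where it gave the highest of 22.5% of all tested genes). Control replicate 3 gave the lowest reading of 18 (36.7%, against 21.7% of all tested genes). The median SD within the BPA group was 0.20 over the members and 0.17 over all genes, and within the control group 0.14 over the members and 0.15 over all genes. Markers of several other cell types shared both extremes, with their highest average in BPA replicate 1 and their lowest in the third control array. Acinar genes averaged 0.82, 0.073 and -0.41 in BPA replicates 1 to 3, against 0.29, 0.52 and -1.30 in control replicates 1 to 3, with 10 of 10 tested genes higher and a median difference of 0.26. Stellate cell genes averaged 0.63, -0.025 and 0.0088 in BPA replicates 1 to 3, against -0.015, -0.055 and -0.54 in control replicates 1 to 3, with 9 of 10 tested genes higher. Glia and nerve genes averaged 0.37, 0.15 and 0.11 in BPA replicates 1 to 3, against -0.20, 0.065 and -0.50 in control replicates 1 to 3, with 5 of 5 tested genes higher. Their part in the members' readings was not tested. Duct and endothelial genes did not share that order: in BPA replicate 1 they averaged 0.063 and -0.20. Neither did islet endocrine genes. These averaged -0.069, 0.10 and 0.043 in BPA replicates 1 to 3, against 0.0017, -0.079 and 0.0012 in control replicates 1 to 3.

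**Figure D4:**
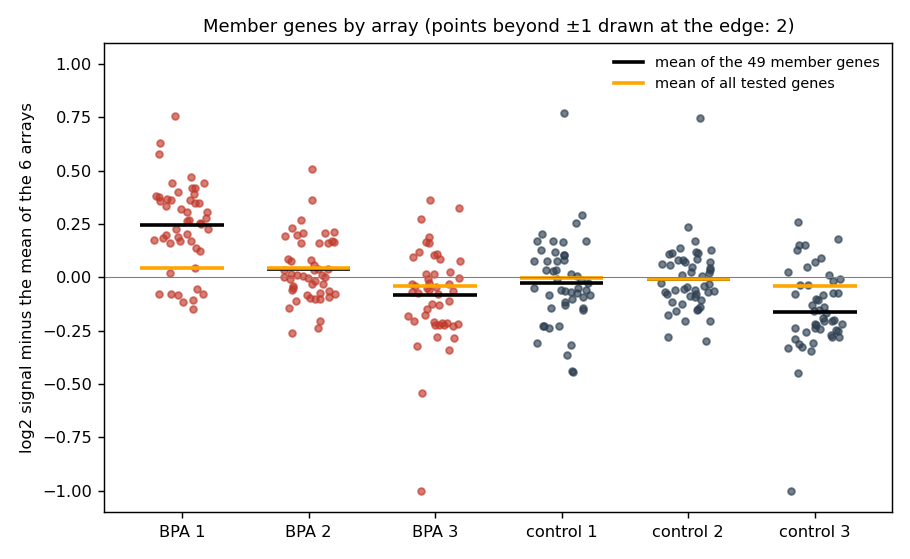
Each point is 1 of the 49 member genes in 1 array, as log2 signal minus that gene's mean over the 6 arrays; black lines are the mean of the members and orange lines that of all tested genes. The members' average is 0.24 in BPA replicate 1, -0.16 in the lowest control array and between -0.085 and 0.037 in the other 4. The 2 points of Psmc3ip beyond -1 are drawn at the edge.

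The separation of the replicate 3 arrays from the others in both groups was large in some member probe sets. Psmc3ip, which only shares the prefix, read 9.01, 8.89 and 7.30 in BPA islets, against 9.16, 9.14 and 6.82 in control islets, low in both replicate 3 arrays. The second probe sets of Psma1 (1458292_at) and Psmd7 (1432820_at) went the other way. That of Psma1 read 6.77, 6.41 and 7.96 in BPA islets, against 6.64, 6.87 and 7.64 in control islets, and that of Psmd7 7.07, 7.07 and 7.91 in BPA islets, against 7.10, 7.09 and 7.95 in control islets. Their differences between BPA and control were 0.033, -0.0040 and -0.030. With both replicate 3 arrays left out the members' median was 0.10, 36 of 49 genes were higher, and Cops6 differed by 0.65. Psme3ip1, the other prefix match, differed by 0.29 ± 0.14, with groups that overlapped at a single pair of arrays. Without these 2 genes the median was 0.099 as well, with 34 of 47 genes higher.

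The promoters of members were searched for known elements of housekeeping and stress genes. RefSeq windows (GRCm38.p6) from 250 bases before to 50 after the annotated start were at hand for 43 of the 51 genes, in 48 windows. The core of the ETS factor element, CCGGAAG, stood on either strand in 43.8% of these windows, against 16.6% of the windows of all tested genes and 8.86% of all windows in the table. Members' windows had a median of 58.7% G and C, and those of all tested genes 60.7%. The core of the antioxidant response element, TGACNNNGC, through which the factor Nfe2l1 raises proteasome genes, stood in 14.6% of members' windows, against 14.1% for all tested genes. The CCAAT box, read as CCAAT, stood in 35.4%, against 36.8%, and the palindromic element of the factor NRF1 in 2.08%, against 1.95%. A match here is a description and not a shown binding site.

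By class the ETS core was in 1 of 8 windows of the alpha ring, 0 of 5 of the beta ring and 0 of 3 of the assembly chaperones. It was in 4 of 6 windows of ATPases, 6 of 10 of COP9 genes and 2 of 3 of activators. Counted by gene that was 3 of 5, 5 of 8 and 2 of 3, since Psmc2 and Cops9 held it in more than 1 window. The windows of Cops9 overlap and share the same sites. The ETS core was in 6 of 9 windows of 19S non-ATPase subunits, shown here because this element was the one whose share in the members' windows was furthest from that in all windows. Each is given in the direction of the gene, with the core in capitals (as CTTCCGG where it lies on the opposite strand).
Psmd2 (chr16:20651614-20651644, plus strand): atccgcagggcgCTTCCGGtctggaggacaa
Psmd4 (chr3:95042721-95042751, minus strand): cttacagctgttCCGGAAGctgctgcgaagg
Psmd6 (chr14:14120972-14121002, minus strand): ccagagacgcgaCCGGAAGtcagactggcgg
Psmd11 (chr11:80428592-80428622, plus strand): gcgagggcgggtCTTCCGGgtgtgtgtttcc
Psmd12 (chr11:107479499-107479529, plus strand): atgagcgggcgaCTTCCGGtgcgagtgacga
Psmd13 (chr7:140882376-140882406, plus strand): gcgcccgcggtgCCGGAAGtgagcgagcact
In 5 of these 6 genes the core began at positions -45 to -6 from the annotated start, and in Psmd4 at -125. Of these 6, on their brightest probe sets, Psmd4 and Psmd13 were the most positive (differences of 0.31 and 0.36), and Psmd6 and Psmd11 were negative (-0.12 and -0.054). Windows of genes above 0 held the core in 48.5% (16 of 33) and those of genes below 0 in 35.7% (5 of 14). For the CCAAT box these shares were 42.4% and 14.3%. With so few windows the splits were not tested.

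The antioxidant response core was in windows of 7 member genes. It began at positions -47 to -7 from the start in 4 of them, and 3 of these are shown with the core in capitals.
Psmb5 (chr14:54618022-54618054, minus strand): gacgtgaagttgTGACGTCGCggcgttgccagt
Psmb6 (chr11:70525336-70525368, plus strand): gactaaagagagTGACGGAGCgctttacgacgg
Psmd9 (chr5:123228147-123228179, plus strand): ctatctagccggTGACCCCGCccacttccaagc
The fourth was Psme4. The 4 genes differed by 0.13, 0.28, 0.31 and -0.039. In Cops7a, Psmc6 and Psmd12 the core began further out, at -183, -227 and -247. These genes differed by -0.044, -0.037 and 0.11. Windows of genes above 0 held this core in 12.1% (4 of 33) and those of genes below 0 in 21.4% (3 of 14), a split that was not tested. Nfe2l1 itself read 9.37, 9.46 and 9.67 in BPA islets, against 9.33, 9.54 and 9.51 in control islets, with overlap (difference 0.037 ± 0.13, adjusted p = 0.97). The window of Cops6, the gene with the largest difference, held neither core and is shown whole for that reason.
Cops6 (chr5:138160852-138161151, plus strand): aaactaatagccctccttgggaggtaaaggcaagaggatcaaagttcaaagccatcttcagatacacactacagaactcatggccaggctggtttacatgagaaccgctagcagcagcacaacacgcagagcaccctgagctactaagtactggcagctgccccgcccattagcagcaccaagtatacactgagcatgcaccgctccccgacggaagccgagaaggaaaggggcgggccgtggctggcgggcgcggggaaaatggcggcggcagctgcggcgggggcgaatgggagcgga
The windows of Psmb10, Psmc5 and Psme1 held neither core as well, and that of Psmd9 held no ETS core.

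Partners of the proteasome outside the member names were read from lists of known function. Of 17 tested assembly factors, regulators and receptors 10 were higher and 7 lower, with a median of 0.030; 1 was higher at an unadjusted p under 0.05 (1 of 17, against 3.98% of all tested genes) and 0 were called. That gene was Pomp, the chaperone that brings beta subunits into the core. It read 10.62, 10.46 and 10.46 in BPA islets, against 9.92, 10.04 and 10.11 in control islets, without overlap (difference 0.49 ± 0.11, SE, unadjusted p = 0.00311, adjusted p = 0.655). The core assembly chaperones Psmg1, Psmg2, Psmg3 and Psmg4 differed by 0.30, 0.054, 0.15 and 0.23, of which Psmg3 and Psmg4 had no overlap. With Pomp that made 3 of 17 genes with BPA above (against 8.48% of all tested genes) and 0 with BPA below (against 3.53%). The proteasome-associated stress gene Zfand5, the lower gene with the smallest p, differed by -0.13 ± 0.12.

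Substrates and relatives of the COP9 signalosome were mixed. Of 19 tested genes of neddylation and cullin ligases 9 were higher and 10 lower, with a median of -0.050, 2 higher at an unadjusted p under 0.05 (against 3.98% of all tested genes), 0 lower (against 1.36%) and 0 called. Nedd8, the modifier that the complex removes, read 10.10, 10.21 and 10.44 in BPA islets, against 9.87, 9.80 and 9.91 in control islets, without overlap (difference 0.39 ± 0.12, SE, adjusted p = 0.674). Eloc, an adaptor of cullin ligases, differed by 0.22 ± 0.084, also without overlap, so that 2 of 19 genes had BPA above (8.48% of all tested genes) and 0 BPA below (3.53%). The genes of the enzyme that activates Nedd8, Nae1 and Uba3, differed the other way, by -0.32 ± 0.17 and -0.21 ± 0.18, with overlap. The cullin genes lay between -0.27 for Cul3 and 0.24 for Cul5. Of the eIF3 translation factor, which is built from the same domains as the lid, 8 of 11 genes were higher (median 0.048). The groups did not overlap for Eif3b at 0.52 ± 0.15, Eif3k at 0.33 ± 0.11 and Eif3d at 0.19 ± 0.10 above, nor for Eif3a at -0.39 ± 0.14 below. That is 3 of 11 above and 1 below, against 8.48% and 3.53% of all tested genes. At an unadjusted p under 0.05 Eif3b and Eif3k were higher and Eif3a lower (2 and 1 of 11, against 3.98% and 1.36% of all tested genes), and 0 were called. Of 5 tested genes of ubiquitin and its activation 3 were higher and 2 lower. None reached an unadjusted p under 0.05 in limma (0 of 5, against 3.98% higher and 1.36% lower of all tested genes), and 0 were called. Ube2r2, a ubiquitin-conjugating enzyme, differed by -0.25 ± 0.12 without overlap and Uba6, a ubiquitin-activating enzyme, by 0.12 ± 0.17. That made 1 of 5 genes with BPA below (against 3.53% of all tested genes) and 0 with BPA above (against 8.48%).

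The 2 member genes below the filter encode tissue-specific core subunits. Psma8, the alpha subunit of the testis, read between 4.83 and 5.07 in all 6 arrays, and Psmb11, the beta subunit of the thymus cortex, between 4.41 and 4.67. Both lay well under the median log2 signal of the array (6.60), and neither was tested. A further 26 probe sets of other members were below the filter.

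**Figure D5:**
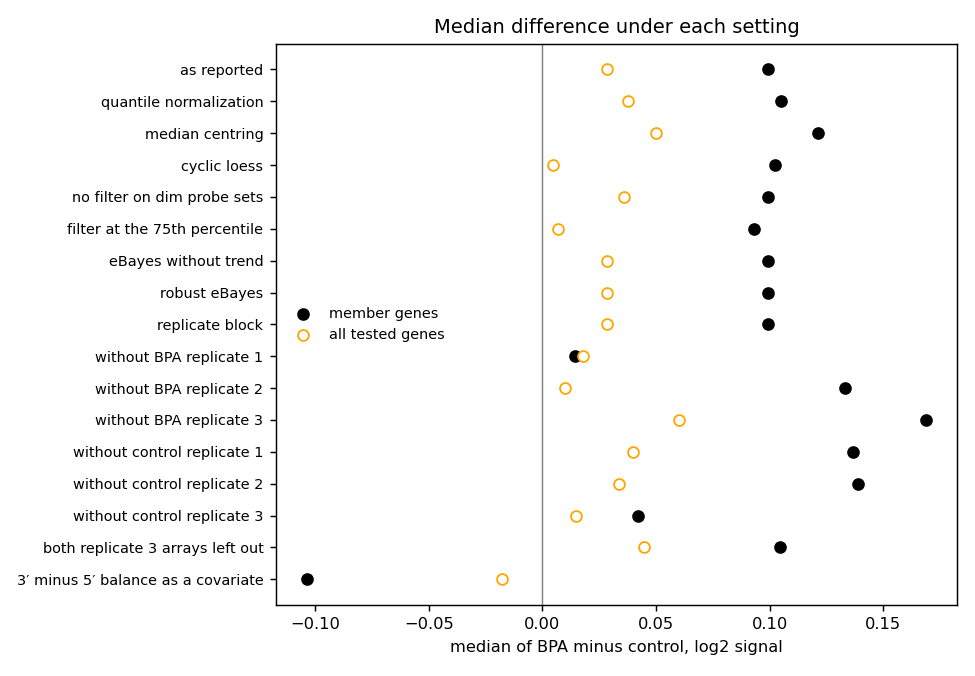
Median difference in log2 signal (BPA minus control) over the tested member genes (black) and over all tested genes (orange) in each setting. The members' median lies between 0.014 and 0.17 in every setting except the fit that holds the end balance as a term, where it is -0.10.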

How the data were processed

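RNA from 6 islet samples (3 BPA, 3 control) was labelled with biotin from 1 µg of total RNA and hybridised to Affymetrix arrays, per the labels' protocols. The authors deposited 1 log2 value per probe set and array. Per the submitters' processing notes the tool was MAS5 (no version); the summary and scaling behind these log2 values are not given in the sources used here, which limits what dim probe sets can show. Array medians lay between 6.55 and 6.65, and the values were used as deposited. No detection calls were used.

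Gene names came from the 2016 platform annotation. Apart from 64 array controls, of 45037 probe sets 34945 had 1 symbol, 932 several and 9160 none. Probe sets with a mean above the median of all (6.60) were kept (22518). The contrast of BPA with control was fitted in limma 3.58.1 under R 4.3.3 (lmFit, eBayes with trend, two-sided, Benjamini-Hochberg over all kept probe sets, threshold 0.05), tested on simulated data first. The members, lists and tests were chosen with earlier results of these data known. Cops9 was placed in the COP9 class after the annotation was read. Named were Cops6, members without overlap, the smallest p and highest signal of each class, and of each list the smallest p in each direction. Signals of different probe sets were not compared as transcript levels. Further members were described by their role or after their values were seen, among them second probe sets. Alternatives were other scalings, filters and variance models, a replicate block, leaving out single arrays and both replicate 3 arrays, the end balance as a term, the set without prefix matches, and averaging the probe sets of a gene.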

Additional observations from a re-analysis of the deposited data

How the results depend on the processing

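The count of called member genes and probe sets was 0 in limma under every alternative run. The members' median difference of 0.099 ran from 0.014 to 0.17 with each array left out and from 0.093 to 0.13 over the other alternatives except 1. With the end balance (3′ minus 5′) in the model it was -0.10, and 31 of 49 genes were then below 0; the cause was not tested. With each array left out 22 of the 49 genes stayed above 0, 4 stayed below, and 23 changed sign. The 5 genes at an unadjusted p under 0.05 became 9 under quantile normalization and 1 with the end balance in the model, and ran from 1 to 11 with each array left out. Samples with equal replicate numbers had deviations from the group means that correlated at 0.48, 0.078 and 0.71 for replicates 1, 2 and 3, and BPA replicate 2 correlated best with control replicate 1, so the number was not taken as a pair. With the replicate number as a block the count was 8 genes, 13 of 79 member probe sets in place of 8, and 3042 of all tested probe sets in place of 1458; 0 passed the adjusted threshold and the members' median was 0.099. With the mean of a gene's kept probe sets the median was 0.13 and 44 of 49 genes were higher. Signal over background cannot be read from these values. With 3 arrays a group the standard error of a single gene's difference was 0.14 (median over the members). A difference above its standard error is not thereby resolved. Of the 49 genes 20 had such a difference, 5 had an unadjusted p under 0.05 in limma, and 0 were called.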
